A study of Mus musculus with 4 samples.

Results

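Solute carriers are membrane proteins that move ions, metals, sugars, amino acids, nucleotides, lipids and vitamins across the plasma membrane and the membranes of organelles. Their genes carry symbols that start with Slc and a family number. Members were taken as every probe with a single platform gene symbol of that form, which gave 276 probes for 256 genes. A gene needed values on at least 3 arrays, which 157 of the 256 genes had (115 on 4 arrays and 42 on 3), among 8384 genes tested in all. Of the remaining 99 genes, 57 had values on 1 or 2 arrays and 42 had none.

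The data come from 4 arrays of mouse lung in 1 group. On each, amplified lung RNA from a single A/J mouse given bleomycin was hybridised together with RNA pooled from A/J control lungs. A/J is an inbred laboratory strain, and bleomycin is a DNA-damaging drug used to injure the lung in animals. Both the treated mice and the pool had the same strain background, and no other allele or agent is named. The mice's age, the drug's dose, route and timing, and the number of mice in the pool are not given in the sources used. The pool is 1 control sample, so the tests leave out the spread between control mice.

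Each value is a log ratio of the treated and pooled RNA, with its base read as 2 and each array centred on its median. Which RNA stands on top of the ratio is not stated, so values are given by their side of 0, and all of them would change sign together if it were turned. Probes of a symbol were averaged on each array, and the mean was tested against 0 with limma over all 8384 genes, with Benjamini-Hochberg adjustment and a threshold of 0.05. The arrays held values for between 9427 and 12136 spots of 17280, and between 157 and 204 of the member probes. Over the 115 members with 4 values, Pearson's r between arrays was 0.74 for mice 1 and 2 and 0.79 for mice 3 and 4, and between 0.40 and 0.45 for the 4 other pairs. Arrays 1 and 2 thus resembled each other, as did arrays 3 and 4, and the labels give no batch. The points of such a correlation share the pool, and genes are not independent replicates. Lung genes had values as the label implies: Sftpa1, Sftpd, Scgb1a1 and Pecam1 were measured on all 4 arrays and Sftpc on 3, although a ratio shows no level.

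Solute carriers work in a chain. The sodium-potassium pump sets the ion gradients, many carriers of amino acids, sugars and phosphate are driven by sodium, and exchangers and uniporters pass on what has been taken up. Mitochondrial carriers exchange metabolites and nucleotides across the inner membrane, and zinc transporters either lower the zinc of the cytosol (Slc30 family) or raise it (Slc39 family). In the lung, carriers serve fluid and phosphate handling of the alveolar epithelium and the uptake of amines by the endothelium.

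Vitamin, choline and nucleotide carriers held the largest values above 0. Mitochondrial carriers and those of glucose and other sugars had no member past the test (0 of 20 and 0 of 13, beside 12.5% of all genes). Classes this small can hold 0 at that share. Of the 157 members, 18 passed (11.5%), beside 12.5% of all genes. Above 0 there were 13 (8.28%, beside 7.69% of all genes) and below 0 there were 5 (3.18%, beside 4.81%). These shares are near those of all genes. The arrays with a value were on 1 side of 0 for all 18 genes. The test of the mean against 0 favours such genes, so this adds no support to the calls. Values on 1 side were found for 68 of the 157 members (43.3%) and 46.7% of all genes. The median of the members' means was 0.02 and that of all genes 0.00, with 86 members above 0. The mean passed a 2-fold difference, in either direction, in 2 members (1.27%, beside 2.14% of all genes): Slc44a2 above 0 and Slc26a4 below. No member exceeded 2-fold on all of 4 arrays, which 0.528% of genes with 4 values did. With the 2 pairs of like arrays as a random block, 7 members passed (4.46%, beside 4.79% of all genes): Slc23a2, Slc26a5, Slc35b1, Slc35f5, Slc43a3, Slc44a2 and Slc44a3. Since this is bulk tissue, fewer cells of a type and less RNA per cell cannot be told apart in any of these values.

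**Figure D1:**
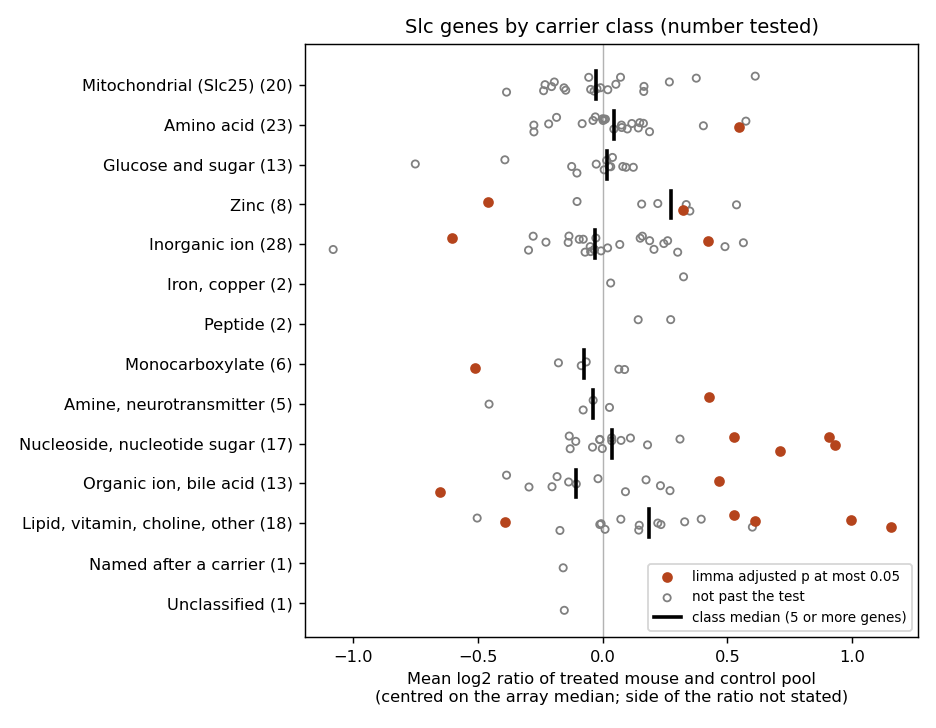
Mean log2 ratio (horizontal axis) of each of the 157 tested Slc genes by carrier class, with filled points for the 18 genes past the test, open points for the others and black bars for medians of classes with at least 5 genes. Filled points above 0 lie mostly among the vitamin, choline and nucleotide carriers, and the mitochondrial and sugar classes have none.

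Among carriers of lipids, vitamins, choline and other small molecules, 4 of 18 tested genes passed above 0 and 1 below (27.8% on either side, beside 12.5% of all genes, of which 7.69% passed above 0 and 4.81% below). The class median was 0.18, and the medians on the arrays of mice 1 to 4 were 0.20, 0.30, 0.21 and 0.05. Slc44a2, which encodes a choline transporter-like protein, had values of 0.84, 0.72, 1.66 and 1.39 in mice 1 to 4. Every array lay well above 0, with mice 3 and 4 higher than mice 1 and 2. Its mean was 1.15 ± 0.45 (SD, n = 4), a 2.23-fold difference if the base is 2 (limma adjusted p = 0.0173). Slc44a3, of the same family, had values of 0.54, 0.67, 0.79 and 0.44 and a mean of 0.61 ± 0.16 (SD, n = 4; limma adjusted p = 0.0141). The 2 other family members tested were Slc44a1, at -0.01, and Slc44a4, at 0.07, neither past the test. The Slc44a1 mean joins probes at -0.30 and 0.28, which lie on opposite sides of 0.

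Slc23a2, which encodes a sodium-driven transporter of vitamin C, had values of 0.73, 1.39, 1.00 and 0.86. Mouse 2 was highest and no array was near 0, and the mean was 0.99 ± 0.28 (SD, n = 4; limma adjusted p = 0.0120), the smallest adjusted p of the members. Slc52a3, a riboflavin transporter gene, had values of 0.75, 0.51, 0.28 and 0.57 and a mean of 0.53 ± 0.19 (SD, n = 4; limma adjusted p = 0.0246). Slc27a4 lay on the other side. It encodes a fatty acid transport protein with acyl-CoA synthetase activity, and its values were -0.27, -0.41, -0.53 and -0.35, with a mean of -0.39 ± 0.11 (SD, n = 4; limma adjusted p = 0.0274). Its relative Slc27a1 lay at 0.15 ± 0.24 (SD, n = 4; limma adjusted p = 0.389). The lowest mean of the class was that of the urea transporter gene Slc14a2, at -0.50 ± 0.37 (SD, n = 3; limma adjusted p = 0.106). Slc23a2 and Slc44a3 passed whichever mouse was left out. Slc44a2 was lost without mouse 4 (limma adjusted p = 0.0617), Slc52a3 without mouse 1, 2 or 4 (up to 0.0835) and Slc27a4 whichever mouse was left out (up to 0.0870).

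The stretch of 250 bases before the annotated start is shown for the pair of choline transporter-like genes that lay on the same side of 0, from RefSeq on GRCm38.p6. Capitals mark TGCNCNC on either strand, which was searched because the members include zinc transporters. It is looser than the core of the metal response element, which has A or G at the N after TGC. The Slc44a2 stretch lies at chr9:21320469-21320718 on the plus strand, before the upstream of the 2 starts listed for the gene, and the Slc44a3 stretch at chr3:121532345-121532594 on the minus strand.
Slc44a2: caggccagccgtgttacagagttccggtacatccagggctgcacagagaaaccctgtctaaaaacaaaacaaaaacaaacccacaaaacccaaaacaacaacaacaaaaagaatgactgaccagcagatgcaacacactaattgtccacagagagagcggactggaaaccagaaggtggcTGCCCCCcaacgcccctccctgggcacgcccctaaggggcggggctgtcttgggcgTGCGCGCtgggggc
Slc44a3: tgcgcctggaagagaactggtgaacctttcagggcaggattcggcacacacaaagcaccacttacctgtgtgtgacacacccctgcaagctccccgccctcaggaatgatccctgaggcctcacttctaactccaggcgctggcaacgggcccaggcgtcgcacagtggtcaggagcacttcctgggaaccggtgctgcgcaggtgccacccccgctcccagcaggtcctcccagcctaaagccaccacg
The Slc44a2 stretch held 2 matches and the Slc44a3 stretch 0. Of the Slc44a2 matches, TGCGCGC has a base of the core after TGC and TGCCCCC does not. Each held 1 match of the GC box GGGCGG and 0 of CCAAT, on either strand. Over 27025 genes with a stretch of this length, with 1 chromosome left out, 43.8% held TGCNCNC, 32.9% GGGCGG and 34.5% CCAAT. Of the 157 tested members, 118 were matched, and 49.2%, 55.1% and 31.4% of these held the motifs in the same order. A match describes letters and is no evidence of binding.

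Carriers of nucleosides and nucleotide sugars had 4 of 17 tested genes past the test, all above 0 (23.5%, beside 7.69% of all genes above 0), with a class median of 0.04. Slc35b1, which encodes a nucleotide carrier of the endoplasmic reticulum, had values of 0.81, 0.41, 1.35 and 1.15 and a mean of 0.93 ± 0.41 (SD, n = 4; limma adjusted p = 0.0239). All arrays were above 0, with mouse 2 the lowest. Slc43a3, a carrier of purine nucleobases, had values of 1.23, 0.98, 0.89 and 0.54 and a mean of 0.91 ± 0.29 (SD, n = 4; limma adjusted p = 0.0132). Mouse 1 was the highest and mouse 4 the lowest. Slc35f5, a gene of the nucleotide sugar transporter family, had values of 0.40, 0.60, 1.06 and 0.79 and a mean of 0.71 ± 0.28 (SD, n = 4; limma adjusted p = 0.0226). Slc29a1, which carries adenosine and other nucleosides down their gradient, had values of 0.82, 0.64, 0.33 and 0.32 and a mean of 0.53 ± 0.24 (SD, n = 4; limma adjusted p = 0.0344). The lowest mean of the class was that of Slc35a2, the UDP-galactose transporter gene, at -0.13 ± 0.14 (SD, n = 4; limma adjusted p = 0.291). Slc43a3 passed whichever mouse was left out. Slc35b1 was lost without mouse 1, 3 or 4 (limma adjusted p up to 0.0792), Slc35f5 without mouse 2, 3 or 4 (up to 0.0774) and Slc29a1 whichever mouse was left out (up to 0.0860).

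**Figure D2:**
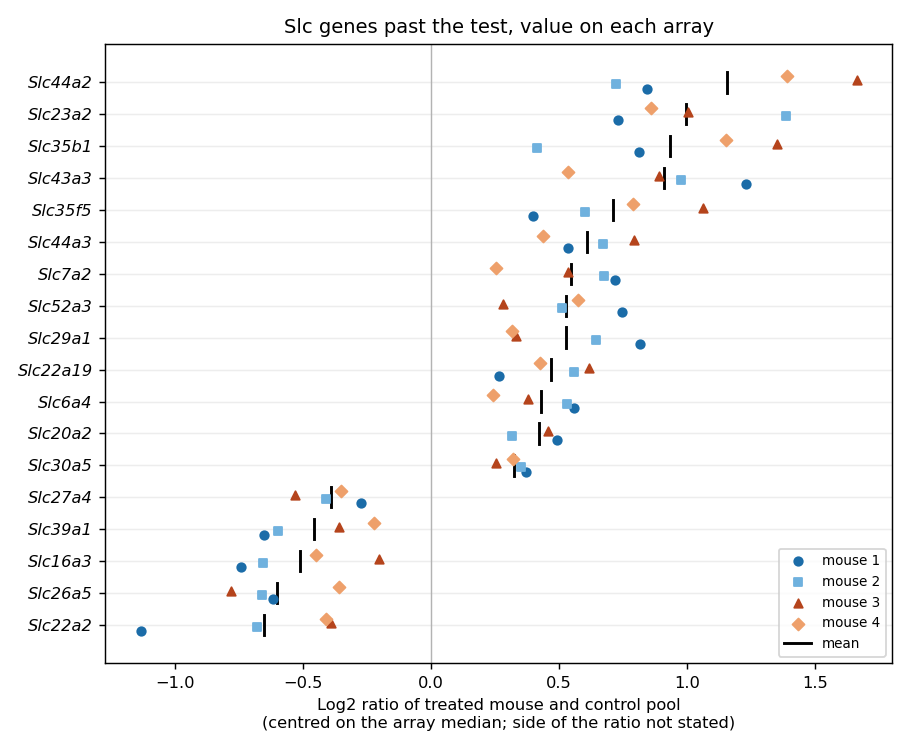
Log2 ratio (horizontal axis) on each of the 4 arrays for the 18 Slc genes past the test, with a symbol for each mouse and a black bar at the mean. Every value lies on its gene's side of 0, 13 genes above and 5 below. Slc30a5, an average of 2 probes, has the narrowest spread of the 17 genes with 4 values.

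The mitochondrial carriers of the Slc25 family had no member past the test. Of 34 such genes 20 were tested, 11 had too few values and 3 had none. Limma passed 0 of the 20, beside 12.5% of all genes, and 6 had an unadjusted p under 0.05 (31.8% of all genes). The median was -0.03, the middle of the class ran from -0.16 to 0.10 (quartiles), and 8 of 20 means were above 0. The medians were -0.07, -0.04, -0.08 and -0.05 in mice 1 to 4. Slc25a3, the phosphate carrier that supplies ATP synthase, had values of 0.01, -0.07, 1.33 and 1.17. Mice 1 and 2 lay at 0 and mice 3 and 4 far above it, so that the highest mean of the class, 0.61 ± 0.74 (SD, n = 4), did not pass (limma adjusted p = 0.187). Slc25a4, the ADP/ATP carrier of heart and muscle, had the lowest mean, with -0.61, -0.33 and -0.22 in mice 1, 3 and 4 (-0.38 ± 0.20, SD, n = 3; limma adjusted p = 0.0839). Slc25a20, which carries acylcarnitines for fatty acid oxidation, lay between -0.08 and 0.07 on all arrays, and the sign of its mean, -0.01, flipped without centring. Slc25a37, which brings iron into mitochondria, had values in mice 1 and 2 only, at 0.11 and -0.14.

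Respiratory chain genes differed in their values, in a list that by symbol also holds assembly factors (Ndufaf genes) and a pseudogene, Ndufs5-ps. Of 63 respiratory chain genes, chosen by symbol with earlier results known, 29 passed below 0 and 1 above (47.6% on either side, beside 12.5% of all genes, of which 4.81% passed below 0), and the median was -0.58 (-0.68, -0.43, -0.69 and -0.31 in mice 1 to 4). Its lowest means, those of Cox7a1 at -2.16 and Cox8b at -2.15, belong to genes that the striated muscle markers also hold. Without these 2 genes 27 of 61 passed below 0, and the median was -0.57. Ndufs5-ps was among the genes below 0, and the gene above 0 was the assembly factor Ndufaf7. On every array the respiratory chain median was thus farther below 0 than that of the Slc25 genes. The difference was not tested, since genes are not replicates. Of 14 tested genes of the outer membrane pore and of protein import (Vdac, Timm and Tomm genes), limma passed 0 (12.5% of all genes), with 6 at an unadjusted p under 0.05 and a median of -0.04. The lowest was Timm8b, at -0.53, and the highest Vdac1, the main pore for metabolites, at 0.35.

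**Figure D3:**
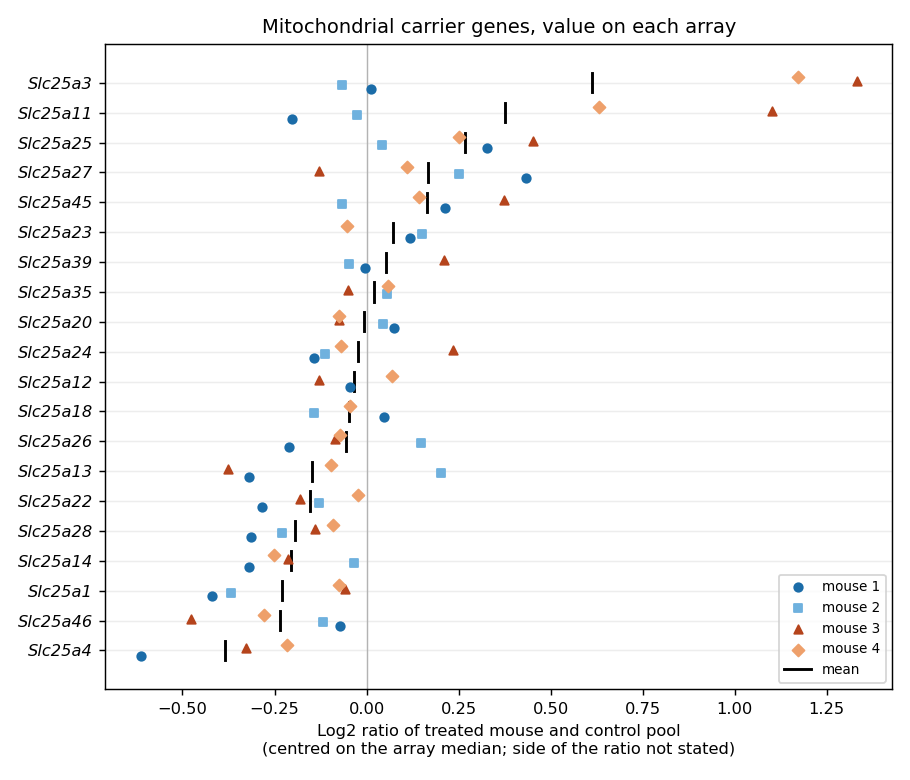
Log2 ratio (horizontal axis) on each array for the 20 tested Slc25 genes, with a symbol for each mouse and a black bar at the mean. Most values lie within 0.5 of 0, and the arrays of mice 3 and 4 stand apart for Slc25a3.

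Glucose and other sugar carriers had no member past the test either. Limma passed 0 of 13 (12.5% of all genes), with 1 at an unadjusted p under 0.05, and the median was 0.02. Slc2a1, the widely expressed basal glucose transporter, had -0.30, 0.05 and 0.17 in mice 2, 3 and 4 and a mean of -0.03 ± 0.24 (SD, n = 3; limma adjusted p = 0.905). Slc2a3, a high-affinity glucose transporter, had a mean of 0.08 ± 0.15 (SD, n = 3; limma adjusted p = 0.599). The highest mean was that of Slc2a10, at 0.12 ± 0.04 (SD, n = 3; limma adjusted p = 0.337). Slc2a4, the insulin-responsive transporter of fat and muscle, was the lowest, with values of -1.15, 0.00, -1.43 and -0.42. Mouse 2 lay at 0 while mice 1 and 3 lay more than 2-fold below, and the test was not passed at -0.75 ± 0.66 (SD, n = 4; limma adjusted p = 0.0992).

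Markers of fat and muscle varied between the mice beside Slc2a4 and Slc25a4. Of 14 listed fat cell markers 7 were tested, 4 passed below 0 and 0 above (57.1%, beside 4.81% of all genes below 0), and their medians were -1.07, -0.09, -1.50 and -0.61 in mice 1 to 4. These medians are over 7, 6, 6 and 7 genes and are not strictly comparable. Plin4 had no value in mouse 2 and Cidec none in mouse 3. The order of the mice in these medians was that of Slc2a4, with mouse 2 nearest 0 and mouse 3 lowest. Of the single markers with a value on every array, all had mouse 2 nearest 0 but only Ucp1 had the whole order. Lipe had its highest value in mouse 3. Member means of the list ran from -2.53 to 0.13. Of 23 striated muscle markers 16 were tested and 7 passed below 0 (43.8%), with medians of -2.78, -1.24, -1.14 and -1.48, and means from -4.90 to -0.17. The muscle medians are over 16, 16, 14 and 15 genes in mice 1 to 4 and are not strictly comparable either. Tnnc2, the lowest mean of the list, and Atp2a1 had no value in mouse 3, and Myh2 had none in mouse 4. The part of fat and muscle tissue in the Slc2a4 and Slc25a4 values was not tested.

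**Figure D4:**
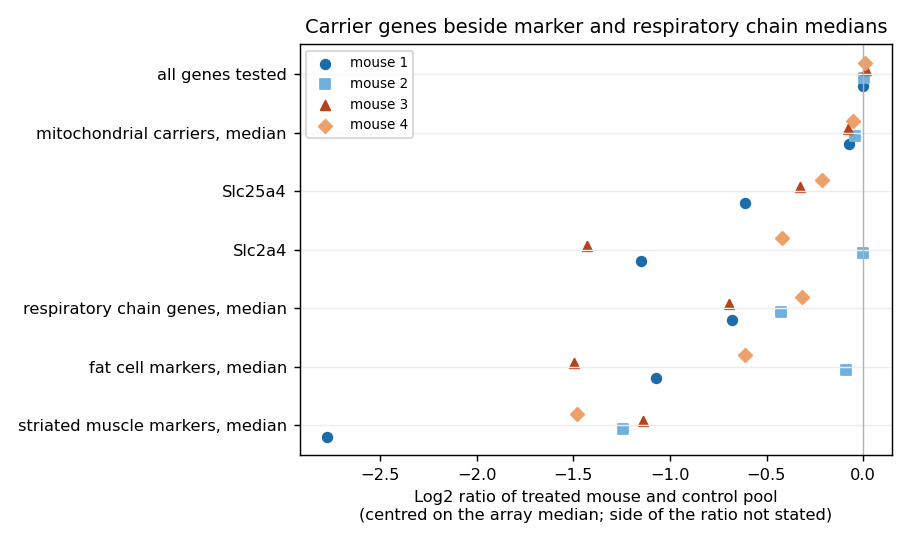
Log2 ratio (horizontal axis) on each array for Slc25a4 and Slc2a4, beside the medians of all tested genes, of the Slc25 genes, of respiratory chain genes and of fat cell and striated muscle markers. Medians are over partly different genes on each array, since some genes lack values. Slc2a4 and the fat cell median share the order of the mice. Of the single fat cell markers with a value on every array, only Ucp1 does. The Slc25 medians lie between -0.08 and -0.04.

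Zinc transporters had 1 of 8 tested genes past the test on each side of 0 (25%, beside 12.5% of all genes). The class median was 0.27, with 0.17, 0.06, 0.39 and 0.28 in mice 1 to 4. It was 0.16 without mouse 3 and 0.18 with genes on at least 2 arrays. Slc30a5, which moves zinc from the cytosol into the secretory pathway, had values of 0.37, 0.35, 0.25 and 0.32. These are averages of 2 probes, and all 4 arrays lay close together, with a mean of 0.32 ± 0.05 (SD, n = 4; limma adjusted p = 0.0309). The probes themselves spread more widely and had unequal means of 0.54 and 0.11. In mice 1 to 4 they had 0.735, 0.341, 0.561 and 0.507, and 0.009, 0.361, -0.053 and 0.13. Slc39a1, which brings zinc into the cytosol, lay on the other side with -0.65, -0.60, -0.36 and -0.22 and a mean of -0.46 ± 0.20 (SD, n = 4; limma adjusted p = 0.0354). Slc39a8, an importer of zinc and manganese, had the highest mean of the class but values of 0.51, 0.70, 1.33 and -0.40. Mouse 4 lay on the opposite side from the others, and the test was not passed at 0.54 ± 0.72 (SD, n = 4; limma adjusted p = 0.219). Slc39a14 had a value only in mouse 2, at -0.11, and Slc30a1 had none. Both called genes were lost whichever mouse was left out, at limma adjusted p up to 0.103 for Slc30a5 and 0.101 for Slc39a1.

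The same 250 bases are shown for the zinc transporter pair on opposite sides of 0, with TGCNCNC in capitals. The Slc30a5 stretch lies at chr13:100833428-100833677 on the minus strand and the Slc39a1 stretch at chr3:90247942-90248191 on the plus strand.
Slc30a5: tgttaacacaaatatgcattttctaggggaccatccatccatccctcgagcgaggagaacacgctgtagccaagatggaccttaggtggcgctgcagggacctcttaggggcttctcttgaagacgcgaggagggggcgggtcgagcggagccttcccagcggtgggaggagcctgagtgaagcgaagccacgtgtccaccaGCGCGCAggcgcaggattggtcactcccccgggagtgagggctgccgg
Slc39a1: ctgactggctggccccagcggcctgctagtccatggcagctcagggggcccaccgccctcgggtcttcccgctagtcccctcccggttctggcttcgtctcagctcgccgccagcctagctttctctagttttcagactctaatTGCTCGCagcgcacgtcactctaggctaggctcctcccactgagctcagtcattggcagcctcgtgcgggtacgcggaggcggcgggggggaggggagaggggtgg
Each stretch held 1 match of TGCNCNC, 1 of GGGCGG and 1 of CCAAT, so these counts do not tell the pair apart. The Slc30a5 match, TGCGCGC on the other strand, has the A or G of the metal response element core after TGC. The Slc39a1 match, TGCTCGC, has T there and is not that core. Of the 7 zinc transporter genes with a stretch, 4 held TGCNCNC (57.1%, beside 43.8% of all genes).

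**Figure D5:**
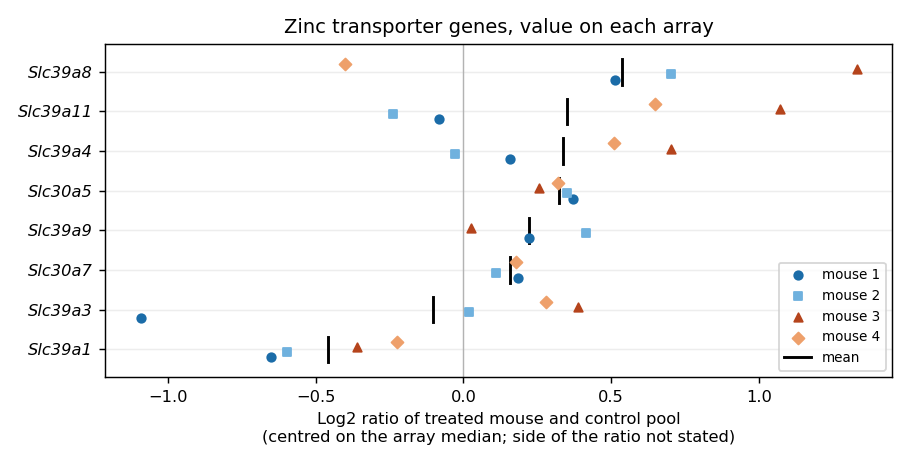
Log2 ratio (horizontal axis) on each array for the 8 tested zinc transporter genes, with a symbol for each mouse and a black bar at the mean. Slc30a5, an average of 2 probes, has all arrays between 0.25 and 0.37. Slc39a1 has all below 0, and Slc39a8 spreads from -0.40 to 1.33.

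Other genes of metal handling fell on both sides. Of 11 tested genes that bind, carry or regulate zinc, copper and iron, 1 passed above 0 and 2 below (27.3%, beside 12.5% of all genes), with a median of -0.06. Mt2, a metallothionein that binds zinc, had -2.87, -1.52 and -1.05 in mice 2, 3 and 4 (-1.81 ± 0.94, SD, n = 3; limma adjusted p = 0.0424). Atox1, a copper chaperone, had a mean of -0.40 ± 0.18 (SD, n = 4), and Hfe, a regulator of iron uptake, of 0.80 ± 0.24 (SD, n = 4). Without a mouse, Mt2 was lost in the only fit that held it (limma adjusted p = 0.0669, without mouse 1, where it has no value), Atox1 without mouse 2, 3 or 4 (up to 0.128) and Hfe without mouse 1 (0.0510). Among the iron and copper carriers themselves, Slc40a1, the cellular iron exporter, lay at 0.03 ± 0.08 (SD, n = 4; limma adjusted p = 0.770). Slc11a1, a metal transporter of phagosomes, had only -0.07 in mouse 2 and 0.44 in mouse 4.

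Inorganic ion carriers, the class with the most tested genes, had 1 of 28 tested genes past the test above 0 and 1 below (7.14%, beside 12.5% of all genes), with a median of -0.03. Slc20a2, a sodium-phosphate cotransporter, had 0.49, 0.32 and 0.46 in mice 1, 2 and 3 and a mean of 0.42 ± 0.09 (SD, n = 3; limma adjusted p = 0.0424). Slc26a5, which encodes prestin, the motor protein of outer hair cells, had -0.62, -0.66, -0.78 and -0.36 and a mean of -0.60 ± 0.18 (SD, n = 4; limma adjusted p = 0.0163). Slc26a4, the anion exchanger pendrin, had the lowest mean of all members, with -2.23, -1.91, -0.12 and -0.06. Mice 1 and 2 were far below 0 and mice 3 and 4 near it, and the test was not passed at -1.08 ± 1.15 (SD, n = 4; limma adjusted p = 0.143). Slc26a5 was lost without mouse 1 or 3 (limma adjusted p up to 0.0595). Slc20a2, with no value in mouse 4, was lost in the fit without that array (0.0736) although its own values were the same.

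Slc34a2, the sodium-phosphate cotransporter of alveolar type II cells, had values of 0.22, 0.43, 1.23 and 0.08. All were above 0, with mouse 3 well above the rest, and the mean was 0.49 ± 0.51 (SD, n = 4; limma adjusted p = 0.150). Of the type II cell markers other than Slc34a2, 6 were tested and 1 passed above 0 (16.7%, beside 7.69% of all genes above 0), with means from 0.05 to 1.28. Their medians were 0.20, 0.05, 0.24 and 0.25 in mice 1 to 4. The median of mouse 3 is over 5 genes, since Sftpc had no value there, and is not comparable with the others. The part of cell numbers was not tested. Slc12a2, the sodium-potassium-chloride cotransporter of fluid secretion, had 0.29, 0.15, 0.21 and 0.33 (0.25 ± 0.08, SD, n = 4; limma adjusted p = 0.0636). Slc12a7, a potassium-chloride cotransporter, had the highest mean of the class, 0.56 ± 0.30 (SD, n = 3; limma adjusted p = 0.0608). Slc4a1, the anion exchanger of red cells, had 0.05, -0.10 and 0.67 in mice 1, 2 and 4 and did not pass (limma adjusted p = 0.457). Of 5 tested erythroid markers 1 passed above 0 (20%, beside 7.69% of all genes), with a median of 0.06. Limma passed 0 of 6 tested genes of the sodium-potassium pump and its Fxyd regulators (12.5% of all genes), with 0 at an unadjusted p under 0.05 and means from -0.31 to 0.33. Among partners and regulators of carriers, 2 of 12 tested genes passed above 0 and 1 below (25%, beside 12.5% of all genes). Oxsr1 and Stk39, sister kinases that act on cation-chloride cotransporters, lay on opposite sides, at 0.57 ± 0.14 and -0.40 ± 0.20 (SD, n = 4; limma adjusted p = 0.0147 and 0.0470). The third was Nedd4, a ubiquitin ligase, at 0.77 ± 0.07 (SD, n = 3). Oxsr1 was lost without mouse 1 or 3 (limma adjusted p up to 0.0540) and Stk39 whichever mouse was left out (up to 0.130).

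Amino acid transporters had 1 of 23 tested genes past the test above 0 and 0 below (4.35%, beside 12.5% of all genes), with a median of 0.05. Slc7a2, which takes up arginine and other cationic amino acids, had values of 0.72, 0.67, 0.53 and 0.25, all above 0. Its mean was 0.54 ± 0.21 (SD, n = 4; limma adjusted p = 0.0254). Slc3a2, the heavy chain that brings several Slc7 transporters to the membrane, had 0.36, 0.40 and 0.97 in mice 1, 2 and 3 and a mean of 0.57 ± 0.34 (SD, n = 3; limma adjusted p = 0.0713). Slc1a5, a glutamine transporter, had -0.28, -0.12, -0.21 and -0.26 and a mean of -0.22 ± 0.07 (SD, n = 4; limma adjusted p = 0.0820). Its arrays lay close together below 0 but the difference was small. The glycine transporter gene Slc6a9 had the lowest mean, -0.28 ± 0.46 (SD, n = 4; limma adjusted p = 0.328). Slc7a5, a light chain partner of Slc3a2, had a value in mouse 1 only, at 0.61, and the cystine transporter gene Slc7a11 had none. Slc7a2 was lost without mouse 1, 2 or 3 (limma adjusted p up to 0.0801).

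The remaining members past the test carry amines, lactate or organic ions. Slc6a4, the serotonin transporter, had values of 0.56, 0.53, 0.38 and 0.24 and a mean of 0.43 ± 0.15 (SD, n = 4; limma adjusted p = 0.0282). Serotonin is taken up by lung endothelium, and 5 of 6 tested endothelial markers, of 9 listed, passed above 0 (83.3%, beside 7.69% of all genes), with medians of 1.04, 1.15, 0.86 and 0.80 in mice 1 to 4. Mice 1 and 2 were higher than mice 3 and 4 in Slc6a4 and in the marker medians. Of the single markers tested only Tie1 had this order, and Tmem100 had the opposite order. The part of endothelial cell numbers was not tested. The lowest of the 5 tested genes of the amine class was Slc6a12, a betaine and GABA transporter gene, at -0.45 ± 0.65 (SD, n = 4; limma adjusted p = 0.247).

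Slc16a3, the monocarboxylate transporter that exports lactate from glycolytic cells, had -0.74, -0.66, -0.20 and -0.45 and a mean of -0.51 ± 0.24 (SD, n = 4; limma adjusted p = 0.0355). Its relative Slc16a1 had a mean of 0.09 ± 0.22 (SD, n = 3; limma adjusted p = 0.628), and 1 of 6 genes of the class passed (16.7%, beside 12.5% of all genes). Bsg, the chaperone of both, had a mean of 0.01 ± 0.38 (SD, n = 4). Of 13 organic ion and bile acid carriers, 1 passed on each side of 0 (15.4%). Slc22a2, an organic cation transporter, had -1.13, -0.68, -0.39 and -0.41 (-0.65 ± 0.35, SD, n = 4; limma adjusted p = 0.0380), with mouse 1 the lowest. Slc22a19, an organic anion transporter, had 0.27, 0.56, 0.61 and 0.43 (0.47 ± 0.15, SD, n = 4; limma adjusted p = 0.0249). Slc6a4 and Slc22a2 were lost whichever mouse was left out (limma adjusted p up to 0.0878), Slc16a3 without mouse 1, 2 or 4 (up to 0.100) and Slc22a19 without mouse 2, 3 or 4 (up to 0.0807). Of the classes with fewer than 5 tested genes, the peptide carriers Slc15a2 and Slc15a4 had means of 0.14 and 0.27, and the copper carrier gene Slc31a2 of 0.32. Slc9a3r2, a scaffold named after a carrier, had -0.16, and Slc18b1 -0.15, and none of these passed.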

How the data were processed

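The authors deposited 1 log2 ratio per spot and array (base read as 2 from the range of the values, since it is not stated). How the arrays were scanned, labelled, background-corrected and normalized is not given in the sources used here, and 0 other columns of per-sample values were in the table. Signal was not part of it, so dim spots could not be judged. Each array was centred on its median (-0.009, 0.015, 0.029 and 0.019 before centring). A table of the platform's annotation named 14722 of 17280 spots with 1 symbol, 1 with several, and left 2557 unnamed here. All 276 member probes matched a RefSeq gene. The test was limma 3.58.1 in R 4.3.3 (lmFit with an intercept, eBayes, two-sided) and was tested on simulated data. Each treated mouse is 1 replicate, numbered by the labels. Errors are SDs between mice.

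Members, classes and lists were chosen with earlier results of these data known. Classes follow symbol patterns, and Slc6a19os, an opposite-strand gene, fell among the amine carriers. Named genes are the 18 called, the highest and lowest of each class with at least 5 tested genes, and textbook carriers whatever their value. Slc44a1, Slc44a4, Slc66a2, the genes of classes with fewer than 5 tested genes, and genes of partner lists were named after their values were seen. Of the 18 called genes, 17 rest on 1 probe. Promoter stretches were taken as the first listed window of each gene, and the genes of 1 chromosome were left out of the search.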

Additional observations from a re-analysis of the deposited data

How the results depend on the processing

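The number of members past the test stayed within 1.5 times of 18 without centring, with values on all 4 or on at least 2 arrays, with the median over probes, with robust eBayes and with arrays scaled to a common spread. With pairs of arrays as a random block it was 7 (6 above 0 and 1 below), and 402 of all genes passed in place of 1048. Without 1 mouse it was 5 to 6 (4 to 6 above 0 and 0 to 1 below), and 277 to 537 of all genes passed. The 0 below, by limma without mouse 1, came with 9 below 0 at an unadjusted p under 0.05. These fits hold fewer arrays and fewer genes. Mitochondrial and sugar carriers had 0 past limma in every setting listed. With the block 4.79% of all genes passed, so 0 in classes of 20 and 13 genes says little about these classes there. The same holds for the fits without a mouse, where few genes of any kind passed. Slc23a2, Slc43a3 and Slc44a3 passed in each fit without a mouse. Class medians moved by more than their spread between mice only when a mouse was left out, over fewer genes: amine carriers -0.054 to 0.0737, mitochondrial carriers -0.0786 to -0.0035, monocarboxylate carriers -0.307 to -0.0653 and organic ion carriers -0.0977 to -0.0092. Of the 40 named genes, only Slc25a20 changed sign in any setting, to 0.0055 without centring, 0.0147 without mouse 3 and 0.0143 without mouse 4, with -0.0353 as its lowest value without a mouse. No paired analysis was possible because there is 1 group of mice and 1 pool. Limits are the 4 arrays, the single pool, the unstated side and base of the ratio, and 99 members with too few values.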

Other observations

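Of 33 tested Slco and ATP-binding cassette genes, transporters outside the Slc symbols, 0 passed limma above 0 and 2 below (6.06%, beside 12.5% of all genes, of which 7.69% passed above 0 and 4.81% below). An unadjusted p under 0.05 on either side was found for 8 (31.8% of all genes), and the median of the list was 0.02. Both called genes encode lipid transporters of the A subfamily: Abca7 had values of -0.86, -0.48, -0.81 and -0.55 in mice 1 to 4 (-0.67 ± 0.19, SD, n = 4; limma adjusted p = 0.0141), and Abca1, which exports cholesterol from cells, had -0.32, -0.25, -0.35 and -0.24 (-0.29 ± 0.06, SD, n = 4; limma adjusted p = 0.0415). Abca7 was lost without mouse 3 (limma adjusted p = 0.0527) and Abca1 whichever mouse was left out (up to 0.121). Abcg1, a cholesterol exporter as well, lay on the other side but short of the threshold, at 0.57 ± 0.35 (SD, n = 4; limma adjusted p = 0.0516). Abca3, the lipid transporter of surfactant bodies in alveolar type II cells, had a mean of 0.05 ± 0.04 (SD, n = 4; limma adjusted p = 0.598).

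Of 8 tested members with at least 2 probes that each had 3 or more values, 5 had probe means on both sides of 0: Slc17a6, Slc35a2, Slc38a10, Slc44a1 and Slc4a3. None of these passed the test. The only called gene among the 8 was Slc30a5. Slc66a2 is not among them, since only its probe at 0.658, 0.796, 0.594 and 0.692 in mice 1 to 4 had enough values. Its other probes had values in mice 1 and 2 only. Averaging them in put the gene at 0.22 and 0.08 in these mice, and it did not pass (limma adjusted p = 0.0882).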
